A study of Mus musculus with 29 samples.

Results

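Th0 cells were compared with naive CD4 T cells, using all genes at 1 or more in at least 3 of the 6 columns of both groups. The rule kept 13458 genes of the 18065 that were above 0 in any of these columns and of the 54532 listed in the table. All cells were CD4 T cells from spleens of C57BL/6 mice, and the RNA was read near the 3' end of polyadenylated transcripts (QuantSeq 3' FWD). Of the 29 samples in the series, 3 libraries each of Th0, Treg and naive cells were used. Th0 cells had been kept in culture for 5 days, and IL-2 (15 ng/ml) was the cytokine given. Treg cultures of equal length received the same IL-2 plus human TGF-beta (10 ng/ml) and serve here as a side value. Naive cells were not cultured. The labels used here do not name the stimulus given to the cultures, and stimulation, IL-2 and time in culture cannot be told apart in this design. Nor do they tell if the replicates came from different animals or culture wells, and p-values therefore reflect only library-to-library spread, part of which may be technical.

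A naive CD4 T cell circulates between blood and lymphoid organs in a resting state, kept alive by IL-7 and held out of the cell cycle by factors such as Klf2, Foxo1 and Tcf7. Antigen receptor and costimulatory signals make it grow, divide and display the high-affinity IL-2 receptor, and IL-2 then acts through the kinases Jak1 and Jak3 on the transcription factors Stat5a and Stat5b. Growing T cells take up more glucose and amino acids, make ribosomes and lipids, and copy their DNA. A Th0 culture is one driven without the cytokines that steer cells to a T helper or regulatory lineage.

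The label was checked against marker genes. CD4 T cell genes (Cd3d, Cd3e, Cd3g, Cd4, Trac, Trbc2, Cd5 and Lck) were above 0 in all libraries and summed to 3894 to 4134 CPM in Th0 and 4987 to 5418 CPM in naive libraries. Of these 8 genes 6 were called lower in Th0 cells and none higher, against 18.7% and 25.8% over all genes. Of the resting-state genes fixed as markers, Ccr7, Tcf7, Lef1, S1pr1, Klf2 and Il7r were lower in Th0 cells. Of the activation genes Il2ra, Tfrc and Mki67 were higher and Cd44 was not called (limma adjusted p = 0.064), while Cd69, an activation gene outside that list, was lower (log2 change -1.87). The naive libraries also held more RNA of other cells. Red cell and platelet genes summed to 6.36 to 13.3 CPM in Th0 and 503 to 1174 CPM in naive libraries, and 6 of the 9 were at 0 in all Th0 libraries. B cell genes summed to 135 to 149.8 CPM in Th0 and 389 to 907 CPM in naive libraries, with 4 of 13 at 0 in all Th0 libraries. Myeloid genes summed to 0 to 5.30 CPM in Th0 and 40.9 to 108 CPM in naive libraries, with 13 of 17 at 0 in all Th0 libraries. Plasma cell genes summed to 0 to 2.45 CPM in Th0 and 19.9 to 43.9 CPM in naive libraries, with 3 of 4 at 0 in all Th0 libraries. Sums of CD8, NK and gamma-delta T cell genes overlapped between the groups, at 95.5 to 152 CPM in Th0 and 79.5 to 108 CPM in naive libraries. Single members moved in both directions, with 2 higher and 4 lower of 11 tested, against 25.8% and 18.7% over all genes. Of the Treg genes also fixed as markers, Lrrc32 was higher, and Foxp3, Ikzf2 and Ctla4 (log2 change -1.35) were lower. Results of the other fixed ones, Ikzf4, Nrp1 and Gpr83, are not reported here. A longer list of Treg core genes is described below. In bulk RNA, fewer cells of a type and less RNA per cell cannot be told apart.

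**Figure D1:**
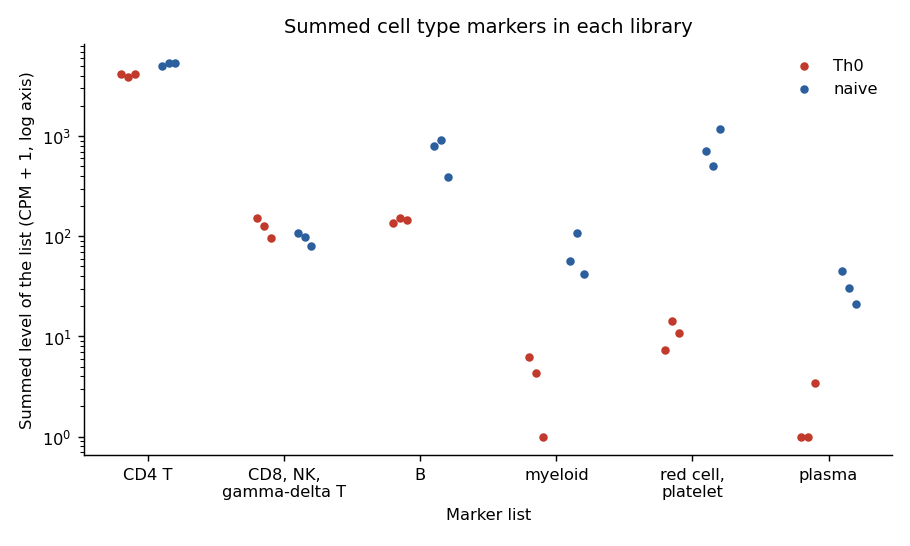
Summed level of each marker list (CPM plus 1, log axis), 1 point per library, with Th0 points beside naive points for each list. The CD4 T cell sums are 3894 to 4134 CPM in Th0 and 4987 to 5418 CPM in naive libraries. The red cell and platelet sums are 6.36 to 13.3 CPM in Th0 and 503 to 1174 CPM in naive libraries.

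Depth was 816391 to 943873 reads in Th0 and 797612 to 855458 reads in naive libraries. A count of 0 therefore allows up to 3 reads, which is 3.18 to 3.67 CPM (reads per 1000000 counted) in Th0 and 3.51 to 3.76 CPM in naive libraries. Reads carry no molecular identifiers, so these floors cover counting error only. Log2 values of 2 Th0 libraries correlated at 0.955 to 0.958 over genes and those of 2 naive libraries at 0.948 to 0.949, against 0.825 to 0.829 between the groups. The ribosomal RNA locus Gm42418 accounted for 6.59% to 7.88% of reads in Th0 and for 10.3% to 11.4% in naive libraries, and every other gene's CPM is a share of what is left.

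Growth, division and energy genes were higher in Th0 cells, and resting-state, antigen-signal and TGF-beta feedback genes were lower. In limma's fit of log2(CPM + 1), at a Benjamini-Hochberg adjusted p under 0.05, 3467 genes were higher (25.8% of those tested) and 2515 were lower (18.7%), together 44.4%. Counts given for gene lists below are to be read beside these shares. The median log2 change over all 13458 genes was 0.09. Numbers in brackets after a gene name are log2 changes, Th0 minus naive. A change of at least 2-fold was seen for 2241 of the higher and 1565 of the lower genes, and of at least 8-fold for 368 and 123. The higher genes were 58.0% of the calls on this scale, 51.8% after TMM scaling (trimmed mean of M values) and 48.3% after quantile scaling, so the balance of higher and lower calls depends on the scaling. Values of the groups did not overlap for 51% of the genes tested, with Th0 the higher group for 28.1% and the lower for 22.9%. Of the 10934 protein-coding genes, 3210 were higher and 2031 lower, and of the 2524 genes of other types 257 were higher and 484 lower. The share of genes called was 25.7% below a mean of 5 CPM and 72.1% at 100 CPM or more, so a gene with few reads that was not called may still differ.

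**Figure D2:**
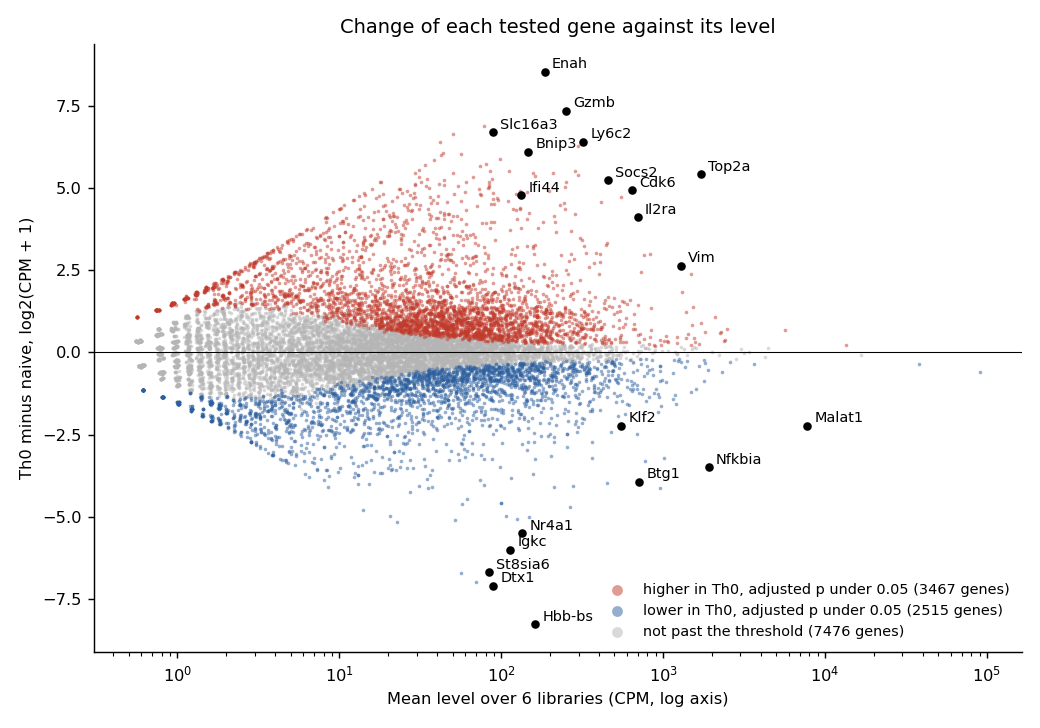
Log2 change, Th0 minus naive, of every gene tested (vertical axis) against its mean level (horizontal axis, log scale), with genes higher in Th0, lower in Th0 and not called in separate colours. Called genes lie on both sides of 0, and black points with names mark genes described in the text.

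The gene of largest rise was Enah (ENSMUSG00000022995, protein-coding, chromosome 1, 181896384 to 182027556 on GRCm38.p6), an actin regulator of the Ena/VASP family. It had 361, 391 and 363 CPM in Th0 libraries, against 0, 0 and 0 CPM in naive libraries. It was thus read in every Th0 library and in no naive library, a rise of at least 98.8-fold against the floor of 3 reads in the shallowest naive library. Gzmb, the serine protease granzyme B of cytotoxic granules, had 611, 434 and 453 CPM in Th0 libraries, against 3.76, 4.96 and 0 CPM in naive libraries (log2 change 7.34, SE 0.47, limma adjusted p = 3.4e-10). Its lowest Th0 library stood far above its highest naive library. Aldoc, an aldolase of glycolysis, had 178, 154 and 134 CPM in Th0 libraries and was at 0 in all but 1 naive library (log2 change 6.89), and Slc16a3, the lactate exporter MCT4, rose by 6.69 on the log2 scale. Myl10, a myosin light chain, and Prok1, a secreted peptide, were at 0 in all naive libraries and rose at least 26.8-fold and 22.3-fold. The rest of the 15 genes of largest rise at 50 CPM or more were Ly6c2 (log2 change 6.41), Ifitm3 (6.28), the mitophagy receptor Bnip3 (6.09), the abscission protein Cep55 (6.07), the transglutaminase Tgm2 (6.05), the cytokine Lif (5.99), the spindle checkpoint kinase Ttk (5.89), the repressor E2f8 (5.85) and the linker histone Hist1h1b (5.74). Reads of Ly6c2 and Ifitm3 can be shared with near copies of these genes.

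At the other end, Hbb-bs, Hba-a2, Hbb-bt and Hba-a1 (haemoglobin chains) and Igkc (the antibody kappa chain) took 5 of the 15 largest falls and belong to the red cell and B cell lists above. Dtx1, a Notch-pathway ubiquitin ligase (ENSMUSG00000029603, protein-coding, chromosome 5, 120680203 to 120711867), had 0, 0 and 1.22 CPM in Th0 libraries, against 179, 172 and 184 CPM in naive libraries (log2 change -7.10, SE 0.45, limma adjusted p = 2.5e-10). St8sia6, a sialyltransferase, had 1.06, 1.11 and 0 CPM in Th0 libraries, against 149, 178 and 173 CPM in naive libraries (log2 change -6.68). Both were thus near 0 in every Th0 library and above 100 CPM in every naive library. The other large falls were of Fosb (log2 change -5.71), Nr4a1 (-5.50), Rgs2 (-5.21), Tnfaip3 (-5.07), Rflnb (-4.99), Fos (-4.70), Nr4a3 (-4.61) and Egr1 (-4.59), most of them genes that an antigen signal switches on within minutes to hours. A count of 0 in all naive libraries was found for 298 genes, of which 14 averaged 20 CPM or more in Th0 cells, and a count of 0 in all Th0 libraries for 201 genes, of which 4 averaged 20 CPM or more in naive cells. These genes entered through the group where they are read, so the calls of these 298 and 201 genes are not set against the background. Counts of the gene lists below do include such genes where they are members.

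Promoter sequences are shown for members of several gene lists, with the share of each list's windows that hold a short motif. RefSeq windows of 300 bases (250 before to 50 after a gene's start, GRCm38.p6) were at hand for 9079 of the 13458 genes tested. Motifs were searched as letters on both strands, and a match is a description of the letters, not a binding site. Each gene below is a called member of its list with the motif, printed in the gene's own direction with the matches in capitals. The choice went by size of change, but some windows were left out of it. Another listed gene with the motif may therefore have a larger change.

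The DNA replication gene Uhrf1 (chr17:56304063-56304362, plus strand) holds an E2F motif (TTTCCCGC, TTTCGCGC, TTTGCCGC or TTTGGCGC). The mitosis gene Ttk (chr9:83834439-83834738, plus strand) holds a cell cycle homology region (TTTGAA, here on the other strand). The asparagine synthetase gene Asns (chr6:7693160-7693459, minus strand) holds an amino acid response element (TGATGNAA). The hypoxia gene Bnip3 (chr7:138909457-138909756, minus strand) holds hypoxia response element letters (ACGTGC or GCGTGC) in 3 separate stretches, the middle of them a palindrome that matches on both strands. The interferon-induced gene Oas3 (chr5:120777610-120777909, minus strand) holds an interferon-stimulated response element (GAAANNGAAA). The immediate early gene Zfp36 (chr7:28379179-28379478, minus strand) holds a CArG box; it lies outside the rule for named genes and is shown for this window alone.
Uhrf1: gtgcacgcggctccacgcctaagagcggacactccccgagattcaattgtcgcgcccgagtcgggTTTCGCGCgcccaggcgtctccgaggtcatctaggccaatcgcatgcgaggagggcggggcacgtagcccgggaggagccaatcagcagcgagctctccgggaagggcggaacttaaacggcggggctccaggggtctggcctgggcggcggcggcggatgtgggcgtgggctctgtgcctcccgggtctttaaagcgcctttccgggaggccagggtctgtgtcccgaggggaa
Ttk: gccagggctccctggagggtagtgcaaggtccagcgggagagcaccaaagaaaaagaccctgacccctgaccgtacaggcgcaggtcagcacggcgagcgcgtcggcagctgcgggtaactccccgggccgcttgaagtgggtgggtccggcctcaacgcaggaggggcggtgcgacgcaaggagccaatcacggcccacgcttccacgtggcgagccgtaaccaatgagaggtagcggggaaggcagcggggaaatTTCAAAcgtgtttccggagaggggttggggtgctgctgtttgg
Asns: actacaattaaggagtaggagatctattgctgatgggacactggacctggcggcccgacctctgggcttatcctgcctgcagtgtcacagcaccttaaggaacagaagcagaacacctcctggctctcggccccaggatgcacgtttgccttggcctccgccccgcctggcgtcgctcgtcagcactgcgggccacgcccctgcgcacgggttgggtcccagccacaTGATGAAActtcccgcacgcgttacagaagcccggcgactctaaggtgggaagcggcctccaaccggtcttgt
Bnip3: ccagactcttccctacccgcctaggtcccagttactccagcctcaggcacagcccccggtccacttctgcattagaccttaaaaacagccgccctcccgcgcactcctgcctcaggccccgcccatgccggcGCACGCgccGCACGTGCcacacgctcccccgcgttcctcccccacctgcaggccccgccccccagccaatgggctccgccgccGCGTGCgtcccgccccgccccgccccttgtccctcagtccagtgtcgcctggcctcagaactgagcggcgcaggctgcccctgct
Oas3: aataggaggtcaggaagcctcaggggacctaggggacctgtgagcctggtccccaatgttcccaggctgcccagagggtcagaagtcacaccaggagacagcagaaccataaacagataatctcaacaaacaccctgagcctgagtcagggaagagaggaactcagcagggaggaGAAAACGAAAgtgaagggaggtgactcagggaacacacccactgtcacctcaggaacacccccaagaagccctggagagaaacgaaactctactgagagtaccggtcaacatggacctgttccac
Zfp36: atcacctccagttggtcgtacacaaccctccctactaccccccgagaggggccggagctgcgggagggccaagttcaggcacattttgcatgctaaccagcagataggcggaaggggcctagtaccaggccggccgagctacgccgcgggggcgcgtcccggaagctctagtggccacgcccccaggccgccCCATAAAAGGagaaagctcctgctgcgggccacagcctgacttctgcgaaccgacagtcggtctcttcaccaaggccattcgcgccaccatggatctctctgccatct

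The E2F motif was found in 28.99% of the windows of the DNA replication list, against 4.17% of the windows of tested genes and 2.26% of all 32851 windows. The cell cycle homology region was in 60% of the windows of the mitosis list, against 12.4% of tested and 17.89% of all windows. Amino acid response elements stood in 36.36% of the windows of the integrated stress response list, against 2.34% and 3.97%. Hypoxia response elements stood in 50% of the windows of the hypoxia list, against 26.35% and 16.32%; their letters overlap with those of the E-box CACGTG. Interferon-stimulated response elements stood in 45.83% of the windows of the interferon-induced genes, against 3.13% and 3.44%. The CArG box stood in 6 of 36 windows (16.67%) of the immediate early list, against 1.29% and 1.63%, but these windows belong to only 3 of its 29 genes. Lists of this size hold 20 to 80 windows each, and a gene with several starts adds several windows. Listed genes were counted whatever their call, so these shares do not describe the changed genes as such. In windows of higher and not called genes, E2F motifs stood in 6.21% and 3.79%, cell cycle homology regions in 15.19% and 11.77%. Shares were 28.04% and 26.17% for hypoxia, 3.35% and 3.14% for interferon and 2.92% and 2.09% for amino acid elements. For the CArG box, lower and not called genes had 1.73% and 1.28%.

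**Figure D3:**
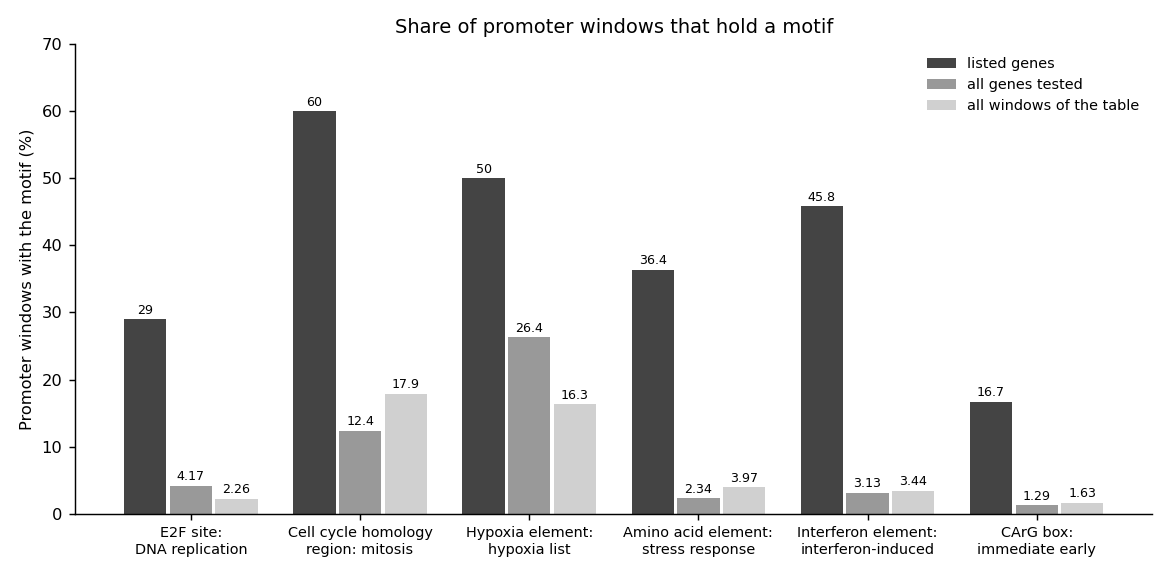
Share of promoter windows with a motif (percent, vertical axis from 0), with 1 group of 3 bars per motif: windows of the listed genes, of all genes tested and of all genes in the promoter table. The bar of the listed genes is higher than both backgrounds for each motif drawn, as with 60% against 12.4% and 17.89% for the cell cycle homology region.

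In the IL-2 pathway the receptor chains Il2ra and Il2rb and most genes downstream of Stat5 were higher, and Il7r was lower. Il2ra, the alpha chain that raises the affinity for IL-2, had 1259.7, 1320.5 and 1359.6 CPM in Th0 libraries, against 77.7, 84.2 and 64.3 CPM in naive libraries (log2 change 4.11, SE 0.09, limma adjusted p = 1.9e-16). Il2rb, the signalling beta chain, had 762, 667 and 592 CPM in Th0 libraries, against 119, 130.1 and 129.8 CPM in naive libraries (log2 change 2.40). Both chains were thus several-fold higher in every Th0 library. Il7r, the receptor chain for IL-7, had 121, 81.0 and 84.5 CPM in Th0 libraries, against 666, 669 and 559 CPM in naive libraries (log2 change -2.73, SE 0.14, limma adjusted p = 1.8e-11), and Il21r fell 2.99-fold as well. Of the 8 receptor chains, 2 were higher and 3 lower, against 25.8% and 18.7% over all genes. Of the kinases and transcription factors, none was higher: Jak1 had 499, 544 and 555 CPM in Th0 libraries, against 1402, 1405 and 1258 CPM in naive libraries (log2 change -1.35), and Stat5b fell 1.84-fold. Feedback inhibitors and targets went the other way, with 9 of 11 higher, 1 lower and a median log2 change of 2.38. Socs2, an inhibitor of cytokine signalling, had 853, 852 and 971 CPM in Th0 libraries, against 22.6, 24.8 and 21.0 CPM in naive libraries (log2 change 5.23, SE 0.11, limma adjusted p = 6.3e-17). The cytokines Lif (log2 change 5.99) and Lta, lymphotoxin alpha (3.97), the kinase Pim1 (1.22) and the survival factor Bcl2 (1.85) rose too. Libraries of the groups did not overlap for any of these genes.

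Genes of DNA copying and cell division rose almost as complete sets. Of the DNA replication list 69 of 71 tested members were higher and none lower, with a median log2 change of 2.30, against 25.8% higher over all genes. All 22 tested genes of licensing and origin firing, all 22 of polymerases, clamp and ligation and all 9 of deoxynucleotide supply were called higher. Rrm2, the regulated subunit of ribonucleotide reductase, had 153, 146 and 125 CPM in Th0 libraries, against 5.01, 3.72 and 2.34 CPM in naive libraries (log2 change 4.96, SE 0.20, limma adjusted p = 5.5e-13). Lig1, the DNA ligase of replication, had 644, 719 and 698 CPM in Th0 libraries, against 66.4, 96.6 and 90.0 CPM in naive libraries (log2 change 3.03). Mcm7, a subunit of the replicative helicase, had 553, 679 and 563 CPM in Th0 libraries, against 122, 76.8 and 101 CPM in naive libraries (log2 change 2.59). Every Th0 library stood above every naive library for these genes, as for the helicase loader Cdc6 (log2 change 4.56), Mcm10 (4.75) and the thymidine kinase Tk1 (4.80).

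Of the mitosis list 85 of 88 tested members were higher and none lower, with a median log2 change of 4.07, and the list summed to 23309 to 23727 CPM in Th0 and 3291 to 3465 CPM in naive libraries. Top2a, the topoisomerase that untangles chromosomes, had 3300.2, 3308 and 3371 CPM in Th0 libraries, against 97.8, 79.3 and 58.4 CPM in naive libraries (log2 change 5.42, SE 0.12, limma adjusted p = 1.9e-16). It rose 42.7-fold. The largest rises by role were Ttk, Ube2c (log2 change 5.45) and Bub1 (5.25) among kinases and checkpoint genes, Knl1 (5.53), Cenpf (5.39) and Cenpm (5.26) at the kinetochore, and Nusap1 (5.52) and Tpx2 (5.45) on the spindle. Smc4, a condensin subunit, was among the 3 members not called, with 1383, 1293 and 1396 CPM in Th0 libraries, against 1229, 1230.3 and 1182 CPM in naive libraries. Its groups did not overlap, but the difference missed the threshold (limma adjusted p = 0.069). Tubulin genes share reads with near copies, and Tubb5 (log2 change 2.37) and Tuba1b (2.44) are given with that limit.

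Cell cycle control was less uniform. Of the list 35 of 44 tested members were higher and 7 lower, with a median log2 change of 1.76. Cyclins and kinases were higher for 15 of 16. Cdk6, a kinase of the G1 phase, had 1158, 1277 and 1273 CPM in Th0 libraries, against 50.1, 35.9 and 33.9 CPM in naive libraries (log2 change 4.93, SE 0.12, limma adjusted p = 5.9e-16), and Cdk1 (5.38), Ccna2 (5.68) and Ccnb1 (5.19) of the later phases also rose. The exception was cyclin D2, Ccnd2, which had 1489.6, 1644 and 1716 CPM in Th0 libraries, against 2148, 1964 and 1949 CPM in naive libraries (log2 change -0.32, SE 0.08, limma adjusted p = 0.0035). Among the E2F and Rb family the repressors E2f8 and E2f7 (log2 change 4.52) and the mitotic activator Foxm1 (4.64) rose most, and E2f5 fell 4.10-fold. Inhibitors split, with 6 higher and 5 lower of 11, against 25.8% and 18.7% over all genes. Cdkn1a (p21) had 425, 314 and 289 CPM in Th0 libraries, against 17.6, 17.3 and 29.2 CPM in naive libraries (log2 change 3.96). Cdkn1b (p27), a brake of resting cells, had 141, 161 and 143 CPM in Th0 libraries, against 212, 204 and 243 CPM in naive libraries (log2 change -0.56).

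**Figure D4:**
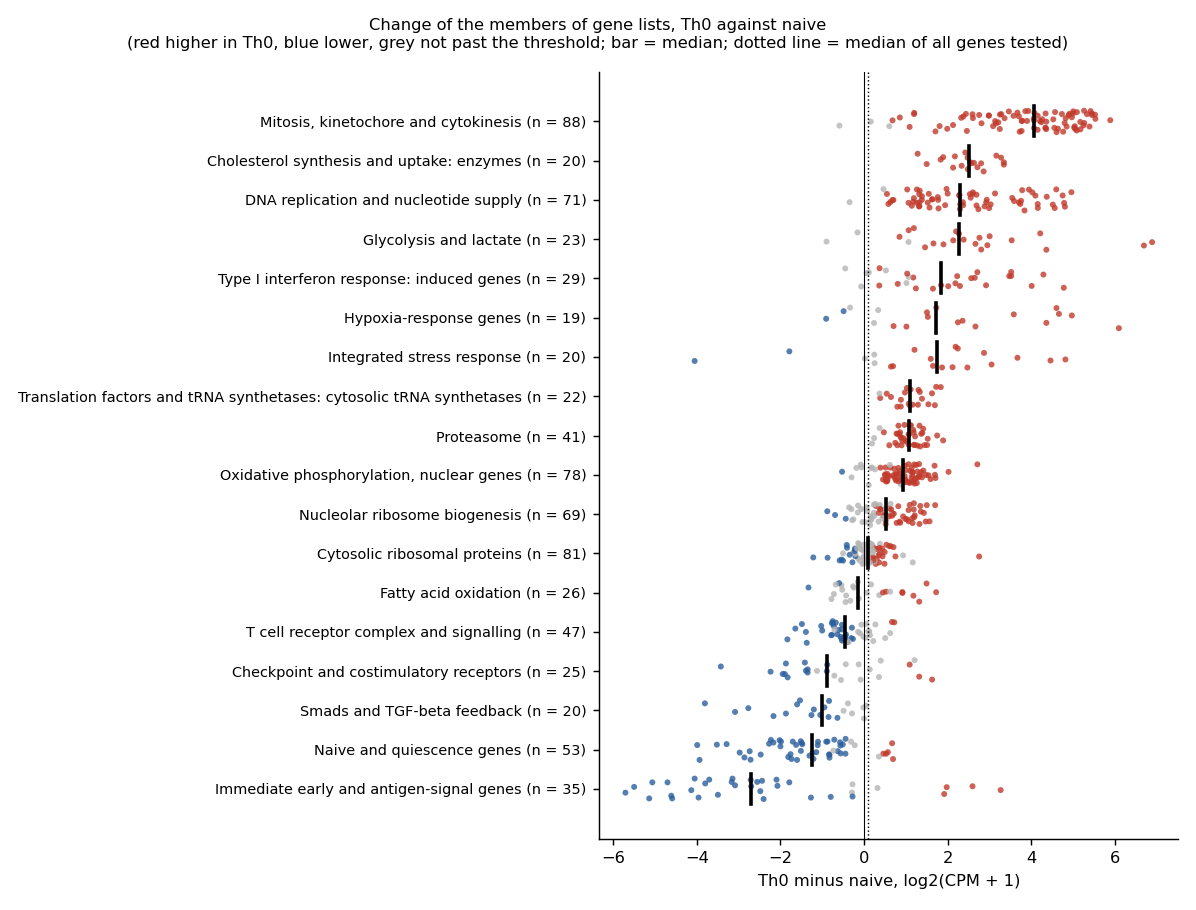
Log2 change, Th0 minus naive, of the members of each gene list (1 point per gene tested), with each list's median marked by a bar. A thin solid line is drawn at 0 and a dotted line at the median of all genes tested. Mitosis, DNA replication and glycolysis genes lie to the right with medians of 4.07, 2.30 and 2.27, and immediate early genes lie to the left with a median of -2.70.

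Ribosome biogenesis, tRNA synthetase and mitochondrial translation genes were called higher far more often than lower. Of the nucleolar ribosome biogenesis list 38 of 69 tested members were higher and 3 lower, with a median log2 change of 0.52. After TMM scaling 32 were higher and 3 lower, and after quantile scaling 27 and 4. Ncl, nucleolin, had 2795, 2888 and 2754 CPM in Th0 libraries, against 1262, 1357 and 1414 CPM in naive libraries (log2 change 1.07, SE 0.07, limma adjusted p = 3.8e-10), and Npm1, nucleophosmin, rose by 1.36 on the log2 scale. Among RNA polymerase I and III genes the Th0 values were higher for 6 and lower for 3 of 18, near the 25.8% and 18.7% over all genes, and Maf1, a repressor of polymerase III, was lower (log2 change -0.69). Of 81 cytosolic ribosomal proteins 21 were higher and 12 lower, against 25.8% and 18.7% over all genes. The counts were 15 and 15 after TMM scaling and 26 and 9 after quantile scaling, so their balance depends on the scaling. Rps27l, a p53-regulated relative of Rps27, had 222, 225 and 224 CPM in Th0 libraries, against 32.6, 37.2 and 28.1 CPM in naive libraries (log2 change 2.75). Rps27 had 1358, 1260.5 and 1188 CPM in Th0 libraries, against 2333, 2380.0 and 2254 CPM in naive libraries (log2 change -0.87). The relatives moved in opposite directions, and reads of ribosomal protein genes can be shared with pseudogenes. Of cytosolic tRNA synthetases 21 of 22 were higher and none lower, with a median log2 change of 1.10, led by Vars (1.83) and Gars (1.72). Eif4ebp1, an inhibitor of cap-dependent initiation, had 97.5, 98.8 and 85.7 CPM in Th0 libraries, against 5.01, 6.19 and 10.5 CPM in naive libraries (log2 change 3.58, SE 0.27, limma adjusted p = 3.8e-09). Eif1 (log2 change -0.78), Eif4a2 (-0.83) and Eif5 (-0.36) were lower. Mitochondrial translation and import genes were higher for 32 of 49 and lower for none.

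Amino acid and nucleotide supply followed. Slc7a5, the light chain of the large neutral amino acid transporter, had 98.5, 109.8 and 143 CPM in Th0 libraries, against 13.8, 18.6 and 12.9 CPM in naive libraries (log2 change 2.88, SE 0.19, limma adjusted p = 5e-10). Slc38a2, another amino acid transporter, had 422, 398 and 405 CPM in Th0 libraries, against 1184, 1046 and 1215 CPM in naive libraries (log2 change -1.49, SE 0.09, limma adjusted p = 1.6e-10) and was the only transporter of the list called lower. Psat1 of serine synthesis (log2 change 2.97), Shmt1 (2.84) and the mitochondrial one-carbon enzyme Mthfd2 (1.96) rose. Of the integrated stress response list 15 of 20 genes were higher and 2 lower. Asns had 37.1, 26.6 and 46.5 CPM in Th0 libraries, against 0, 1.24 and 0 CPM in naive libraries (log2 change 4.82), and Stc2 (4.46) and Sesn2 (2.47) rose with it. Atf4, the factor that drives this response, had 351, 434 and 392 CPM in Th0 libraries, against 326, 289 and 381 CPM in naive libraries and was not called (limma adjusted p = 0.076). Ppp1r15a, the phosphatase subunit GADD34 that ends the response, fell 16.6-fold and is also an immediate early gene. Purine and pyrimidine genes were higher for 16 of 25, against 25.8% over all genes. Uck2 (log2 change 2.12), Pfas (2.14) and Paics (1.88) were among them, and the CTP synthase Ctps2 was lower (-2.29).

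Protein turnover and folding genes rose as well. Of the proteasome list 38 of 41 tested members were higher and none lower, with a median log2 change of 1.06, and all 14 core particle genes were called, such as Psmb2 (1.89) and Psma7 (1.51). Among chaperones 27 of 44 were higher and 9 lower, against 25.8% and 18.7% over all genes. Hspd1 (log2 change 1.66) and Hsp90b1 (1.56) were among those higher. Hspa5, the chaperone BiP of the endoplasmic reticulum, had 774, 817 and 732 CPM in Th0 libraries, against 1023, 1108 and 1308 CPM in naive libraries (log2 change -0.56, SE 0.09, limma adjusted p = 3.7e-05), and Dnajb9 fell 8.10-fold. Hsp90b1, Hspa5 and Dnajb9 all belong to the endoplasmic reticulum, so its chaperones moved in both directions.

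Glycolysis genes rose almost as a complete set. Of the list 20 of 23 tested members were higher and none lower, with a median log2 change of 2.27, and its summed level was 6208 to 7093 CPM in Th0 and 1064 to 1119 CPM in naive libraries, 6.14 times higher in Th0 cells. Slc2a1, the glucose transporter GLUT1, had 119, 122 and 94.3 CPM in Th0 libraries, against 16.3, 17.3 and 16.4 CPM in naive libraries (log2 change 2.66, SE 0.19, limma adjusted p = 1.2e-09), and Slc2a3, GLUT3, rose by 2.27 on the log2 scale. Hk2, the hexokinase of growing cells, had 219, 264 and 195 CPM in Th0 libraries, against 11.3, 12.4 and 7.01 CPM in naive libraries (log2 change 4.36, SE 0.21, limma adjusted p = 5.5e-12). Tpi1 (log2 change 4.21), Aldoa (3.00) and the pyruvate kinase Pkm (2.95) rose with the aldolase and the lactate exporter named above. No glycolysis gene was called lower. Of the hypoxia-response list 14 of 19 were higher and 2 lower. Hif1a had 283, 253 and 243 CPM in Th0 libraries, against 85.3, 90.4 and 92.3 CPM in naive libraries (log2 change 1.53, SE 0.11, limma adjusted p = 1.1e-09). Egln3, a prolyl hydroxylase (log2 change 4.66), and Ndrg1 (4.36) rose, while Arnt, the partner of Hif1a, fell 1.88-fold.

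Mitochondrial energy genes rose less far and more evenly. Of nuclear oxidative phosphorylation genes 67 of 78 tested members were higher and 1 lower, with a median log2 change of 0.92. Complex I genes were higher for 31 of 37 and complex V genes for 14 of 16. Ndufv3 of complex I had 310.4, 312 and 311 CPM in Th0 libraries, against 76.5, 73.1 and 78.3 CPM in naive libraries (log2 change 2.02, SE 0.10, limma adjusted p = 1.2e-11), and Cox5a (1.54) and Atp5g3 (1.27) are examples from complexes IV and V. Cox7a2l, which joins complexes into supercomplexes, was the only member called lower (log2 change -0.53). Atpif1, the inhibitor of the ATP synthase, rose by 2.71 on the log2 scale. Of the mitochondrial genome 4 of 7 tested transcripts were higher, against 25.8% over all genes. Among them was mt-Nd2 (log2 change 0.68). In contrast, mt-Nd4 had 3169, 2995 and 3326 CPM in Th0 libraries, against 2932, 2878 and 2953 CPM in naive libraries and was not called. In the citrate cycle list 18 of 24 were higher, led by the citrate carrier Slc25a1 (log2 change 3.06), and Ogdh, a subunit of the oxoglutarate dehydrogenase complex, was lower (-0.53). Pyruvate dehydrogenase kinases Pdk1 (log2 change 1.50) and Pdk3 (2.07) and the pentose phosphate enzyme Tkt (2.22) rose.

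All 20 cholesterol synthesis enzymes were higher, with a median log2 change of 2.51. Genes of cholesterol control, uptake and efflux split 4 higher and 4 lower of 11, against 25.8% and 18.7% over all genes. Sqle, squalene epoxidase, had 123, 102 and 94.3 CPM in Th0 libraries, against 7.52, 8.67 and 15.2 CPM in naive libraries (log2 change 3.28, SE 0.21, limma adjusted p = 3.4e-10), and Cyp51 (3.16) and Fdps (3.34) rose. Stard4, a sterol carrier, rose by 2.40 on the log2 scale. The cholesterol exporters went down: Abcg1 had 29.7, 27.7 and 29.4 CPM in Th0 libraries, against 56.4, 50.8 and 58.4 CPM in naive libraries (log2 change -0.91), and Abca1 fell 3.86-fold. Synthesis enzymes were thus higher, and both exporters were lower.

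Fatty acid synthesis, elongation and desaturation genes were higher for 12 of 20 and lower for none. Elovl6, an elongase, had 212, 172 and 165 CPM in Th0 libraries, against 7.52, 4.96 and 5.84 CPM in naive libraries (log2 change 4.70, SE 0.16, limma adjusted p = 8e-14), and the desaturase Scd1 rose by 4.18 on the log2 scale. Acyl-CoA synthetases, which activate fatty acids and include Acsbg1 after which the series is titled, were higher for 5 of 14 and lower for 1, against 25.8% and 18.7% over all genes. Acsl5 had 204, 192 and 186 CPM in Th0 libraries, against 46.4, 43.4 and 43.3 CPM in naive libraries (log2 change 2.11, SE 0.11, limma adjusted p = 2.9e-11). Acsl4 rose by 1.99 on the log2 scale, and Acss1, which makes acetyl-CoA in mitochondria, was lower (log2 change -1.98). Acsbg1 overlapped between the groups and was not called (log2 change 0.42, SE 0.31, limma adjusted p = 0.29). Of 26 fatty acid oxidation genes 8 were higher and 2 lower, against 25.8% and 18.7% over all genes, and 6 were higher and 5 lower after quantile scaling. Their median log2 change was -0.14. Acadl, an acyl-CoA dehydrogenase, rose by 1.72 on the log2 scale. Ppargc1b, a coactivator of mitochondrial genes, fell 2.51-fold. Choline kinase alpha, Chka, the first enzyme of phosphatidylcholine synthesis, fell 6.92-fold, while Crls1 of cardiolipin synthesis rose by 1.68 on the log2 scale.

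The resting program was lower in Th0 cells. Of naive and quiescence genes 5 of 53 tested members were higher and 44 lower, with a median log2 change of -1.23, against 18.7% lower over all genes (3 higher after quantile scaling). All 8 homing receptors were lower. S1pr1, which leads T cells out of lymphoid organs, had 108, 119.8 and 158 CPM in Th0 libraries, against 470.1, 539 and 549 CPM in naive libraries (log2 change -2.02, SE 0.13, limma adjusted p = 3.7e-10), and Ccr7, the lymph node homing receptor, fell 2.86-fold. Among transcription factors 14 of 16 were lower. Tcf7 had 57.2, 57.7 and 68.6 CPM in Th0 libraries, against 490.2, 458 and 404 CPM in naive libraries (log2 change -2.86, SE 0.14, limma adjusted p = 1.1e-11). Klf2 had 144, 221 and 222 CPM in Th0 libraries, against 937, 989 and 796 CPM in naive libraries (log2 change -2.23), and Foxo1 fell 4.83-fold. No Th0 library reached the lowest naive library for these factors.

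Brakes on growth and the cell cycle were lower for 14 of 18. Btg1, an antiproliferative gene, had 90.1, 92.1 and 77.2 CPM in Th0 libraries, against 1325, 1339 and 1335 CPM in naive libraries (log2 change -3.94, SE 0.12, limma adjusted p = 6.5e-15). Txnip, which limits glucose uptake, had 479.9, 437 and 502 CPM in Th0 libraries, against 1504, 1449.6 and 1431 CPM in naive libraries (log2 change -1.63), and Tsc22d3 (GILZ) fell 7.87-fold. Ddit4, an inhibitor of mTORC1, went against the list with 427, 519 and 423 CPM in Th0 libraries, against 347, 247 and 258 CPM in naive libraries (log2 change 0.69, SE 0.13, limma adjusted p = 0.00021), and Slfn1 (0.67) and Treml2 (0.57) were higher too. Actn1 and Nsg2, other genes of naive cells, fell 9.77-fold and 15.9-fold. Of the Gimap GTPases, which support survival of resting lymphocytes, 6 of 8 were lower and none higher, Gimap6 most (76.3, 94.3 and 73.5 CPM in Th0 libraries, against 352, 337 and 289 CPM in naive libraries). Marker sums of red cells, B cells, myeloid cells and plasma cells were also higher in the naive libraries, and their part in these falls was not tested.

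Antigen receptor genes were lower by small amounts. Of the list 2 of 47 tested members were higher and 30 lower, with a median log2 change of -0.47. Cd28, the costimulatory receptor, had 159, 162 and 171 CPM in Th0 libraries, against 466, 413 and 419.7 CPM in naive libraries (log2 change -1.39, SE 0.11, limma adjusted p = 6.8e-09). Cd3e (log2 change -0.77), Cd247 (-0.75) and Cd4 (-0.64) of the receptor and coreceptor fell less. Of kinases and adaptors Prkcq (PKC-theta) fell 3.13-fold and the scaffold Bcl10 2.00-fold, while Themis (log2 change 0.67) and Nfatc2 (0.72) were higher. Inhibitors were lower too, as with Dgka, the diacylglycerol kinase that dampens the signal: it had 90.1, 94.3 and 138 CPM in Th0 libraries, against 362, 392 and 385 CPM in naive libraries (log2 change -1.84).

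Immediate early genes had the lowest median of the pathway lists. Of the list 4 of 35 tested members were higher and 28 lower, with a median log2 change of -2.70, and its summed level was 2011 to 2089 CPM in Th0 and 11668 to 14493 CPM in naive libraries. Fos, an AP-1 factor, had 21.2, 14.4 and 20.8 CPM in Th0 libraries, against 543, 446 and 541 CPM in naive libraries (log2 change -4.70, SE 0.23, limma adjusted p = 9.1e-12). Junb had 123, 92.1 and 89.4 CPM in Th0 libraries, against 1511, 1638 and 2277 CPM in naive libraries (log2 change -4.13, SE 0.14, limma adjusted p = 3.8e-14), and Jun fell 15.6-fold. Every naive library held many times the level of any Th0 library. All 7 Egr and Nr4a genes were lower, with Nr4a1, an orphan nuclear receptor induced by antigen, at 9.54, 4.44 and 2.45 CPM in Th0 libraries, against 255, 233 and 306 CPM in naive libraries. Nfkbia, the NF-kB inhibitor, had 314, 305 and 303 CPM in Th0 libraries, against 3424, 2961 and 4145 CPM in naive libraries (log2 change -3.50), and Tnfaip3 (A20) and Klf4 (-5.14) fell with it. Against the list, Ier3 (log2 change 3.27) was higher. Batf3 (10.6, 2.22 and 4.90 CPM) and Atf3 (3.18, 5.55 and 1.22 CPM) were read at low levels in Th0 libraries and were at 0 in all naive libraries. Both are counted among the 4 higher, but they passed the filter through the Th0 libraries alone. The naive libraries in which these genes are high are also those with the higher red cell, B cell, myeloid and plasma cell marker sums given above, and the part of those cells in this result was not tested. Naive cells were also taken without culture, and the part of that difference in handling was not tested either.

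Nuclear RNA and splicing genes moved in both directions. Malat1, a long nuclear RNA, had 2872, 2703 and 2613 CPM in Th0 libraries, against 11809, 12697 and 13963 CPM in naive libraries (log2 change -2.23, SE 0.07, limma adjusted p = 4e-14), so it was lower in every Th0 library. Clk1, a kinase of splicing factors, fell 5.62-fold and Srsf5 3.62-fold, while Snrpd1, a core spliceosome protein, rose by 2.35 on the log2 scale. Of the splicing list 15 were higher and 9 lower of 35, against 25.8% and 18.7% over all genes.

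Surface receptors moved in both directions. Among TNF receptors Tnfrsf9 (4-1BB) had 141, 125 and 125 CPM in Th0 libraries, against 12.5, 13.6 and 11.7 CPM in naive libraries (log2 change 3.27, SE 0.17, limma adjusted p = 1.2e-11). Tnfrsf4, known as OX40 (log2 change 2.98), and Tnfrsf18, known as GITR (2.39), also rose. In contrast, Cd27 had 81.6, 47.7 and 60.0 CPM in Th0 libraries, against 237, 250.3 and 254 CPM in naive libraries (log2 change -1.99), and Tnfrsf25 fell 2.78-fold. Of the ligands Tnfsf8 (CD30 ligand) rose by 1.09 on the log2 scale and Cd40lg fell 2.20-fold. Checkpoint and costimulatory receptors were lower for 12 of 25 and higher for 3, against 18.7% and 25.8% over all genes. Of the inhibitory ones 6 of 12 were lower and none higher. Icos, a costimulatory receptor of activated cells, had 192, 169.8 and 136 CPM in Th0 libraries, against 62.7, 53.3 and 43.3 CPM in naive libraries (log2 change 1.63, SE 0.16, limma adjusted p = 1.2e-07), and Cd2 rose by 1.09 on the log2 scale. Cd69, an early activation antigen that also holds cells in tissue, had 60.4, 64.4 and 45.3 CPM in Th0 libraries, against 222, 199 and 202 CPM in naive libraries (log2 change -1.87). Crtam (log2 change -3.43), Slamf6 (-1.90) and Cd96 (-2.24) fell. Of chemokine and lipid receptors Cxcr4 and Gpr183 fell 5.25-fold and 6.67-fold. Integrin and adhesion genes were lower for 9 of 21 and higher for 2, against 18.7% and 25.8% over all genes. Itga4, the integrin alpha-4 chain, had 21.2, 21.1 and 25.7 CPM in Th0 libraries, against 434, 372 and 403 CPM in naive libraries (log2 change -4.10, SE 0.17, limma adjusted p = 5.3e-13). Itgb7, its partner in gut homing, fell 1.96-fold, and Fut7, which makes selectin ligands, rose by 4.08 on the log2 scale.

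Lineage and effector genes went both ways, with 22 higher and 25 lower of 63, against 25.8% and 18.7% over all genes. Of the 86 listed, 10 were at 0 in all 6 libraries. Among lineage factors Xbp1 had 327, 276 and 254 CPM in Th0 libraries, against 27.6, 35.9 and 24.5 CPM in naive libraries (log2 change 3.25, SE 0.15, limma adjusted p = 2.3e-12), and Eomes (2.06) and Id2 (1.05) rose. Maf had 64.6, 37.7 and 28.2 CPM in Th0 libraries, against 275, 299.8 and 257 CPM in naive libraries (log2 change -2.72, SE 0.21, limma adjusted p = 3.6e-09), and Bcl6, the factor of follicular helper cells, fell 7.31-fold at a low level. Both chains of the IL-12 receptor, Il12rb1 (log2 change 3.37) and Il12rb2 (3.31), rose. Tgfbr2, a TGF-beta receptor chain, had 41.3, 23.3 and 38.0 CPM in Th0 libraries, against 128, 115 and 129.8 CPM in naive libraries (log2 change -1.87). Cytotoxic genes did not move as a set: Gzmb and Gzmc (2.97) rose, and Prf1, perforin, had 7.42, 2.22 and 4.90 CPM in Th0 libraries, against 26.3, 19.8 and 24.5 CPM in naive libraries (log2 change -2.17, SE 0.45, limma adjusted p = 0.00065). Ifng, read at up to a few CPM, was lower (log2 change -2.28). Lgals1 (log2 change 3.02) and Mif (3.01) rose.

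Treg core genes were mixed, with a median log2 change of -0.19 (11 higher and 11 lower after TMM scaling). Of the 24 tested, 11 were higher and 9 lower, against 25.8% and 18.7% over all genes. Those higher included the receptor genes Il2ra and Tnfrsf18 and Lrrc32 (GARP), which had 119, 169.8 and 119 CPM in Th0 libraries, against 3.76, 7.43 and 4.68 CPM in naive libraries (log2 change 4.46). Foxp3, the lineage factor, was lower in Th0 than in naive libraries (log2 change -2.99), and Ikzf2 (Helios) had 55.1, 64.4 and 71.0 CPM in Th0 libraries, against 316, 261 and 270.0 CPM in naive libraries (log2 change -2.14, SE 0.18, limma adjusted p = 1.7e-08). The part of Treg cells among the naive cells in these falls was not tested. Itgae fell 4.01-fold and Cd83 5.90-fold, both at a few CPM. No member of the Smad and TGF-beta feedback list was higher and 14 of 20 were lower, against 25.8% and 18.7% over all genes. The median log2 change of the list was -0.999. Smad7, the inhibitory Smad, had 14.8, 17.8 and 11 CPM in Th0 libraries, against 193, 217 and 231 CPM in naive libraries (log2 change -3.81, SE 0.17, limma adjusted p = 1.5e-12). Ski, another brake on Smad signalling, had 67.8, 91.0 and 87.0 CPM in Th0 libraries, against 256, 247 and 244 CPM in naive libraries (log2 change -1.60). Ldlrad4 was at 0 in all Th0 libraries and had 6.27, 8.67 and 3.51 CPM in naive libraries, so it passed the filter through the naive libraries alone. Smad2 (log2 change -0.02, SE 0.22, limma adjusted p = 0.96) and Smad3 (log2 change -0.39, SE 0.19, limma adjusted p = 0.12) overlapped between the groups and were not called.

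Interferon-induced genes were higher for 22 of 29 and lower for none, against 25.8% and 18.7% over all genes. Their median log2 change was 1.84, and 19 were higher after TMM scaling and 19 after quantile scaling. Ifi44 had 259.6, 229 and 276 CPM in Th0 libraries, against 11.3, 18.6 and 2.34 CPM in naive libraries (log2 change 4.78, SE 0.44, limma adjusted p = 5.2e-08). Ifi27l2a had 632, 637 and 685 CPM in Th0 libraries, against 110.3, 96.6 and 90.0 CPM in naive libraries (log2 change 2.71), and Oas3 (4.29) and Oasl2 (4.01) of the oligoadenylate synthetase family rose. Of 9 receptors and factors of the pathway, 2 were higher and 3 lower, against 25.8% and 18.7% over all genes. Irf7 (log2 change 1.22) and Stat2 (1.27) were higher, and Irf1 (-0.78) and Irf2 (-0.71) were among those lower. Of 14 MHC class I genes Tap1 (log2 change 0.52) and H2-T22 (0.56) were higher and Tapbpl was lower (-0.85), but 3 were lower after TMM scaling and 4 with edgeR. H2-D1 had 2669, 2442 and 2779 CPM in Th0 libraries, against 3246, 2976 and 2837 CPM in naive libraries; it was not called here (limma adjusted p = 0.068) and was called lower under 8 of 20 alternatives. The membrane genes Ly6c2, Ifitm3 and Ifitm2 (log2 change 5.05) rose far, and Ms4a6c fell 3.90-fold; these families hold near copies.

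Survival genes shifted within the Bcl-2 family. Bcl2 had 1998, 2165 and 1988 CPM in Th0 libraries, against 602, 486 and 630.1 CPM in naive libraries (log2 change 1.85, SE 0.09, limma adjusted p = 1.1e-11), and Bcl2l1 (Bcl-xL) rose by 1.79 on the log2 scale. Mcl1, needed by resting and dividing lymphocytes alike, had 203, 169 and 233 CPM in Th0 libraries, against 523, 499 and 576 CPM in naive libraries (log2 change -1.41, SE 0.11, limma adjusted p = 4.6e-09). The anti-apoptotic members thus did not move together. Of p53 targets 9 were higher and 7 lower of 21 (7 and 7 after quantile scaling), against 25.8% and 18.7% over all genes. Cdkn1a was at the top and Sesn1 (log2 change -1.76) among the lowest. Among chromatin regulators Ezh2, the methyltransferase of Polycomb, had 433, 408 and 410.3 CPM in Th0 libraries, against 61.4, 52.0 and 45.6 CPM in naive libraries (log2 change 2.96) and the maintenance methyltransferase Dnmt1 rose by 1.76 on the log2 scale. The histone demethylase Kdm6b had 56.2, 65.5 and 60.0 CPM in Th0 libraries, against 364, 292 and 369 CPM in naive libraries (log2 change -2.47), and the histone methyltransferase Kmt2a fell 2.53-fold. Cytoskeletal genes included Vim, vimentin, with 2205, 2251 and 2177 CPM in Th0 libraries, against 349, 375 and 335 CPM in naive libraries (log2 change 2.64, SE 0.08, limma adjusted p = 5.2e-15). Tfrc, the transferrin receptor that brings in iron, had 495, 519 and 492 CPM in Th0 libraries, against 30.1, 54.5 and 32.7 CPM in naive libraries (log2 change 3.70, SE 0.15, limma adjusted p = 7.3e-13), and the redox genes Txn1 (2.77) and Prdx4 (3.01) rose. Myc itself had 133, 101 and 108 CPM in Th0 libraries, against 40.1, 45.8 and 16.4 CPM in naive libraries (log2 change 1.83), while its antagonist Mxd4 fell 6.93-fold and another, Mxd3, rose by 3.87 on the log2 scale. Autophagy and lysosome genes were lower for 9 and higher for 2 of 25, against 18.7% and 25.8% over all genes, and 14 were lower after quantile scaling.

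The Treg libraries, cultured for the same 5 days with TGF-beta added, show which of these values differ between the cultures. Both comparisons use the same Th0 libraries, so they are not independent. Th0 and Treg cells differed at 726 genes (5.39% of those tested), with 345 above and 381 below in Th0, and at 483 genes when Treg replicate 2 was left out. Top2a averaged 3326 CPM in Th0, 3445 CPM in Treg and 78.5 CPM in naive libraries, and Socs2 averaged 892 CPM in Th0, 865 CPM in Treg and 22.8 CPM in naive libraries. Neither passed the test between the cultures (limma adjusted p = 0.91 for Top2a and 0.89 for Socs2). Gzmb had 611, 434 and 453 CPM in Th0, 22.6, 16.8 and 8.82 CPM in Treg and 3.76, 4.96 and 0 CPM in naive libraries (log2 difference Th0 minus Treg 4.95, limma adjusted p = 1e-06). Ifi44 had 259.6, 229 and 276 CPM in Th0, 19.4, 14.8 and 7.84 CPM in Treg and 11.3, 18.6 and 2.34 CPM in naive libraries (log2 difference Th0 minus Treg 4.17, limma adjusted p = 4e-06). Th0 cells alone were high for both genes. Tgm2 showed the same order, with 14, 2.58 and 1.96 CPM in Treg libraries (log2 difference Th0 minus Treg 4.37, limma adjusted p = 1.9e-05). Klf2 had 144, 221 and 222 CPM in Th0, 393, 532 and 565 CPM in Treg and 937, 989 and 796 CPM in naive libraries (log2 difference Th0 minus Treg -1.35, limma adjusted p = 7e-06). Smad7 had 14.8, 17.8 and 11 CPM in Th0, 87.2, 87.0 and 96.0 CPM in Treg and 193, 217 and 231 CPM in naive libraries (log2 difference Th0 minus Treg -2.57, limma adjusted p = 1.3e-08). For both, the Treg values lay between the others.

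**Figure D5:**
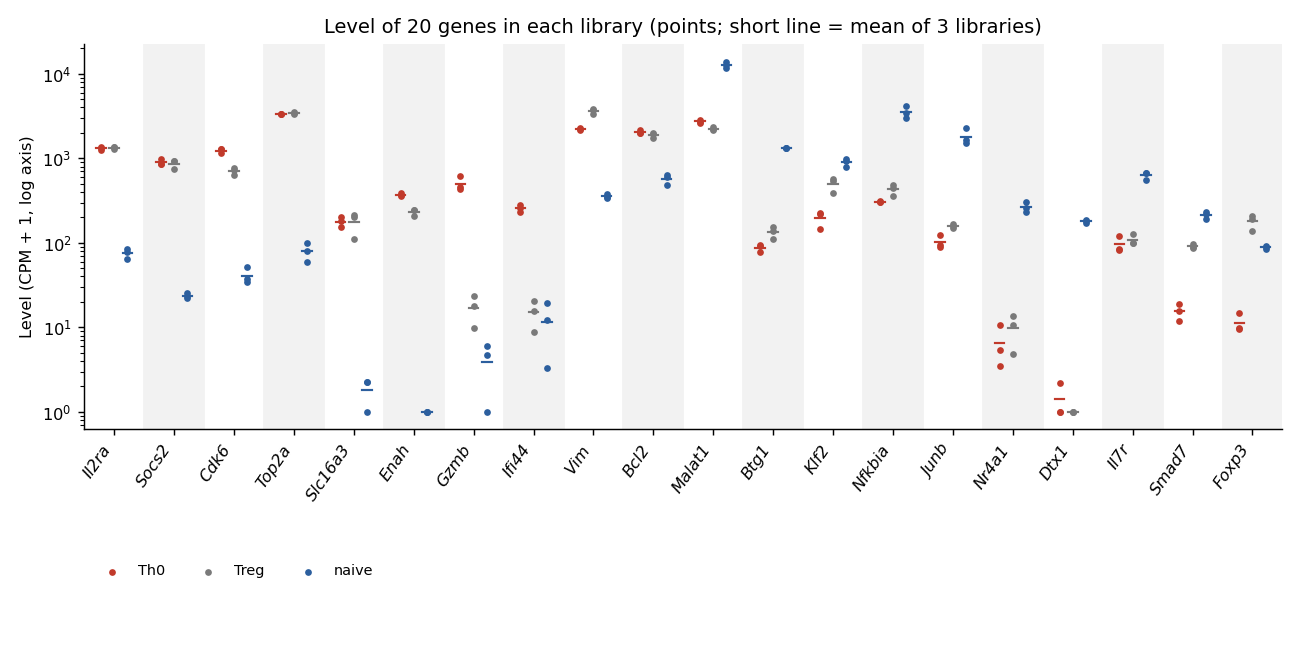
Level of selected genes in each library (CPM plus 1, log axis), with Th0, Treg and naive libraries from left to right for each gene, 1 point per library and a short line at the mean of each group. Gzmb is at 434 to 611 CPM in Th0 libraries and at 0 to 4.96 CPM in naive libraries, with no overlap.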

How the data were processed

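RNA of 9 libraries was used, 3 each of Th0, Treg and naive CD4 T cells; the other experiments of the series were not analysed here. The tools listed in the submitters' processing notes, without roles, are deepTools, Bowtie2, Subread 2.0.1 and STAR 2.7.9a, and the genome build listed is mm10. Which annotation and strand setting were used for counting is not given in the sources used here, so reads of overlapping and antisense genes cannot be told apart, and reads of near copies can be split between them.

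The deposited table is named TPM by the authors, but its values are CPM: each column sums to 1000000, and at a tolerance of 0.01 read every value (100%) stood for a whole number of reads. The plan had assumed TPM; the test stayed the same. Of the 54532 IDs, 54409 had a name in the RefSeq-based table. Column names gave each value column its sample, and groups were taken from the labels.

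Genes were tested with limma 3.58.1 in R 4.3.3 on log2(CPM + 1) with an intensity trend, 9 libraries in 1 fit, two-sided, with Benjamini-Hochberg adjustment over the 13458 genes and calls at an adjusted p under 0.05. Because of the added 1 CPM, folds understate changes of genes with few reads. A gene at 0 in 1 group got a bound against 3 reads in the shallowest library of that group. edgeR 4.0.16 and DESeq2 1.42.0 on the recovered whole reads, other scalings, filters and pseudocounts, and leaving out each Th0 and naive library were alternatives; leaving out each Treg library was added after seeing the data. Of the 5982 limma calls, 5357 were also called by edgeR in the same direction. The fit was also run on simulated counts in which few genes changed, as many up as down. That run does not test the balance of calls, which depends on the scaling.

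Replicate numbers were not used to pair libraries, since the labels do not say what the numbers mark. The members and gene lists were chosen with earlier results of these data known; lists are described by counts and medians, with no test of their own. Genes named are the 15 of largest change each way at 50 CPM or more in the higher group, without predicted genes; per list role, the 3 of largest change and the 2 of highest level; up to 3 called against a list's majority; and Acsbg1, Acsl6, Foxp3, Smad2 and Smad3. Not all of these are described, and the results of some are not reported here. No overlap between the Th0 against naive and Th0 against Treg calls is given, since both use the Th0 libraries.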

Additional observations from a re-analysis of the deposited data

How the results depend on the processing

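The numbers of genes higher and lower in Th0 than naive cells stayed within 1.5 times the reported 3467 and 2515 under all 20 alternatives, of which leaving out each Treg library was chosen after seeing the data. They were 3351 and 2316 with a pseudocount of 0.1 CPM, 3418 and 2483 with no filter, 3143 and 2211 with a 5 CPM filter, 3112 and 2895 with TMM scaling, 2881 and 3085 with quantile scaling, and 3216 and 2765 when Gm42418 and mitochondrial genes were left out of the total. Without the intensity trend they were 3177 and 2327, with the 6 Th0 and naive libraries alone 3253 and 2427, with edgeR 2955 and 2819, and with DESeq2 2370 and 2110. Leaving out 1 of the 9 libraries gave 3006 to 3404 and 2176 to 2494. Over all genes, deviations of same-numbered libraries from their group means correlated at 0.00502, 0.0237 and -0.00299. Many genes have few reads, so these correlations cannot tell whether same numbers mark shared animals or batches. With a replicate block the counts were 3437 and 2479. The 726 genes that differ between Th0 and Treg became 425 without the intensity trend and 483 to 730 when 1 of the 9 was left out, with 483 without Treg replicate 2; the cause was not tested. Smad2, not called, changed sign when 1 library was left out, with log2 changes of -0.201 to 0.081. Of the 227 named genes past the threshold, 3 lost it under an alternative: Atf3 with DESeq2 (adjusted p = 0.071), and Ccnd2 and Eif5 without the intensity trend (limma adjusted p = 0.11 and 0.082). Atf4, Cd44, H2-D1, Smad3 and Smc4, which did not pass it, did so under at least 1 alternative. Depth limits genes with few reads: 25.7% of genes with a mean below 5 CPM were called, against 72.1% of those at 100 CPM or more.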
